A study of Mus musculus with 4 samples.

Results

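The RNA exosome is the main 3′ to 5′ RNA degradation machine of eukaryotic cells, and its core subunits are encoded by *Exosc1* to *Exosc10*. All 10 genes were found by symbol among the 12415 genes with reads on the sense strand of their exons, in RNA-seq libraries of whole testis from *Nef-sp*-/- and *Nef-sp*+/- mice. Reads on the sense strand of introns were listed for 5 of them (*Exosc1*, *Exosc2*, *Exosc3*, *Exosc5* and *Exosc10*) among 6616 genes. Reads on the antisense strand of exons were listed for 3 of them (*Exosc3*, *Exosc8* and *Exosc9*) among 2346 genes.

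The core of the complex is a barrel without catalytic activity of its own in mammals. Its cap carries RNA-binding domains and consists of *Exosc1*, *Exosc2* and *Exosc3* products, while the ring below is built from RNase PH-like subunits arranged as heterodimers, *Exosc4* with *Exosc9*, *Exosc5* with *Exosc8* and *Exosc6* with *Exosc7*. RNA is threaded through this barrel to a Dis3 family nuclease at its base, and the distributive exonuclease encoded by *Exosc10* sits near the cap in the nucleus. The complex matures rRNA, small nuclear and nucleolar RNAs and turns over mRNA and nuclear transcripts. The comparison of genotypes addressed whether RNAs for subunits of the complex differed between testes homozygous and heterozygous for a *Nef-sp* deletion. The paper reports 3′ to 5′ exonuclease activity for NEF-sp, from assays of the recombinant human protein.

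Both groups carried the same *Nef-sp* allele, a 23 bp out-of-frame deletion made with Cas9 nickase and a pair of gRNAs, homozygous in *Nef-sp*-/- mice and heterozygous in the *Nef-sp*+/- controls. All mice were of the C57Bl/6J background and were analyzed as adults at postnatal day 60, with 2 libraries per genotype, and the line descends from founder females crossed with C57Bl/6J Rj males. The libraries of *Nef-sp*-/- and *Nef-sp*+/- mice are called mutant and control libraries. Because the controls were heterozygous, wild-type levels were not analysed here. The labels name replicates without saying that they are separate animals, so that p-values measure only the spread between these libraries.

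The libraries held between 20659865 and 34442517 reads, the deepest being control replicate 2, and exon sense reads came to between 15815159 and 26618821. Replicates differed by more than counting noise (chi-square per degree of freedom 8.53 for *Nef-sp*+/- and 3.52 for *Nef-sp*-/-). *Nef-sp* itself, annotated as *2610020H08Rik*, stood at 1843 and 1693 normalized counts in control and at 406 and 497 in mutant libraries, a log2 fold change, mutant over control, of -1.97 (SE 0.0921, edgeR adjusted p = 4.12e-06), and it was the only gene below the threshold of 0.05 in this category. Summed levels of 6 germ cell markers were between 8520 and 10000 CPM (reads scaled to the exon sense total), with control replicate 1 the lowest. *Tnp1* and *Prm1* weighed the most in this sum, at 60170 and 73470 normalized counts in control replicate 1, and the next was *Ddx4* at 12210. *Ddx4*, *Dazl*, *Sycp3* and *Acrv1* were each higher in control replicate 1 than in control replicate 2. The sum of 3 Sertoli cell markers was between 115 and 122 CPM. The 4 Leydig cell markers summed to 851 and 852 in control and to 801 and 648 in mutant libraries, and 0 of the 17 markers of all types tested passed the threshold (lowest edgeR adjusted p 0.859, where 0.00932% of all genes were called). Of these markers, 3 had an unadjusted edgeR p at or below 0.05, against 4.8% of all genes, namely the Leydig cell genes *Cyp17a1* (log2 fold change -0.27) and *Cyp11a1* (-0.35), which code for steroidogenic enzymes, and the spermatid gene *Tnp1* (0.18). The genotypes overlapped for the other Leydig cell markers, *Star* (0.08) and *Insl3* (0.18). Macrophage (4.51 to 5.1, 3 markers) and erythroid sums (11.4 to 13.7, 2 markers) were low, and the epididymal marker *Crisp1* was at 0 in 3 libraries and at 0.31 in mutant replicate 1. In a whole testis, fewer cells of a type and less RNA per cell cannot be told apart.

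Promoter sequences introduce the genes. RefSeq windows of 300 bp around a start site (250 bases before it and 50 after, build GRCm38.p6) were available for 8 members, with 2 windows for *Exosc10*. *Exosc4* and *Exosc9* have no entry. The windows of the members with the highest and second highest RNA level in these testes, *Exosc5* (chr7:25658903-25659202, plus strand) and *Exosc3* (chr4:45320567-45320866, minus strand), are printed beside that of *Exosc6* (chr8:111056089-111056388, plus strand), which is among the lowest. Capitals mark CGGAAG, the core recognized by ETS family factors, on either strand (CTTCCG).
Exosc5: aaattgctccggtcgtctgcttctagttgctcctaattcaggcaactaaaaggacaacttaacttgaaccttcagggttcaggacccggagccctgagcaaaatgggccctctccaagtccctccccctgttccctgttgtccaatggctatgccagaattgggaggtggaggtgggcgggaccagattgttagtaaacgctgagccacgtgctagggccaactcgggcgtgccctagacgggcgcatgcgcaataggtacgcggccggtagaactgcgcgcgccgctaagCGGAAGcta
Exosc3: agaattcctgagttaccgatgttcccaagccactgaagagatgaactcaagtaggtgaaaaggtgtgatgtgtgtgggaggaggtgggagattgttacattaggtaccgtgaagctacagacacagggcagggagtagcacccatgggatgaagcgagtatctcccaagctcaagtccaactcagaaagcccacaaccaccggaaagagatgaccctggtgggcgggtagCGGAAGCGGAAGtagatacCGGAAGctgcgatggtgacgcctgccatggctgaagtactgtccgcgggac
Exosc6: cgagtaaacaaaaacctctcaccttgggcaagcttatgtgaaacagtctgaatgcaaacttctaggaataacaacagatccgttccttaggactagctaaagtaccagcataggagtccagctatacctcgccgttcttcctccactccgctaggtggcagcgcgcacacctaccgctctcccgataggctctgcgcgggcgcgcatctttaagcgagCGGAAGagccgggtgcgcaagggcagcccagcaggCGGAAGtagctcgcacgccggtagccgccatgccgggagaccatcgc

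CGGAAG or its reverse complement occurred at 1 place in the *Exosc5* window, at 3 in that of *Exosc3* and at 2 in that of *Exosc6*. The windows of *Exosc1*, *Exosc2* and *Exosc7* held 0, and a relation of these letters to RNA level was not tested. CGGAAG or CTTCCG occurred in 5 of the 8 members with a window (*Exosc3*, *Exosc5*, *Exosc6*, *Exosc8* and *Exosc10*). Counted by window, this was 5 of 9 member windows, against 16.9% of all 32851 windows. A member was counted if any of its windows held the motif. GGGCGG or CCGCCC, the GC box of Sp and KLF factors, occurred in 6 of 8 members, or 6 of 9 windows (35.7% of all windows). CCAAT or ATTGG occurred in 3 members (37.4% of all windows). GCATGCGC or GCGCATGC, part of the NRF1 motif, occurred in *Exosc5* and *Exosc10* (2.71% of all windows). TATAAA or TTTATA occurred in 0 of 8 members and 13.6% of all windows, and TGACGTCA, the palindrome bound by CREB and CREM, in 0 of 8 and 1.79%. Motifs were counted separately where they overlap, as CGGAAG and GGGCGG can. The windows of members held a median of 24 CG dinucleotides, against 7 in all windows, and these motif letters were chosen after the windows were seen.

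Many members lie head to head with a gene read in the opposite direction. In GENCODE vM1 on mm9, the 5′ end of 6 of the 9 annotated members (66.7%) lay within 1000 bp of the 5′ end of a protein-coding gene on the other strand, as it did for 2428 of 22380 protein-coding genes (10.8%). *Exosc7* and *Zdhhc3* start 10 bp apart, *Exosc8* and *Alg5* 146 bp, *Exosc1* and *Zdhhc16* 158 bp, and *Exosc5* and *Bckdha* 392 bp. The transcripts of *Exosc4* and *Oplah* overlap at their 5′ ends (618 bp), as do those of *Exosc3* and *Dcaf10* (631 bp), the latter only through the most extended *Exosc3* transcript. That transcript starts at chr4:45355604 in mm9, while the *Exosc3* window printed above lies at chr4:45333439-45333738. The shared intervals of *Exosc8* with *Alg5* (chr3:54539316-54539460) and of *Exosc1* with *Zdhhc16* (chr19:42007805-42007961) are printed on the plus strand of mm9, since each is all the DNA between a pair of transcripts leaving in opposite directions.
Exosc8 to Alg5: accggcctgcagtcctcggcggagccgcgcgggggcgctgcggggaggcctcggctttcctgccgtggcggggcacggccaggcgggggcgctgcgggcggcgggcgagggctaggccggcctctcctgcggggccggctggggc
Exosc1 to Zdhhc16: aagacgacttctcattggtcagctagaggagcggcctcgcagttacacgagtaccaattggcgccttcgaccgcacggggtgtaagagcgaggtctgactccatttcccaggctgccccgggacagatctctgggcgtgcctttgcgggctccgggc

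The interval between *Exosc8* and *Alg5* held 21 CG dinucleotides in 145 bp (83.5% G or C), and that between *Exosc1* and *Zdhhc16* held 13 in 157 bp (61.8%). Neither contains CGGAAG.

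The RNA levels of the members were first compared per length, as normalized reads per kilobase of exon, scaled to the exon sense total (RPKM), with the union of all annotated exons as length. *Exosc5*, encoding a ring subunit, was by far the highest, with 221 and 219 RPKM in control and 213 and 208 in mutant libraries, which placed it at percentile 96.9 of the 10438 genes tested that have a length. It alone made up between 67.1% and 68.5% of the summed RPKM of the 10 members. *Exosc3*, a cap subunit, followed with a mean of 51.5 RPKM over the 4 libraries (50.3 to 53.2, percentile 85.5), and *Exosc10*, the nuclear exonuclease, with 24.2 RPKM (23.4 to 24.7, percentile 74.1). These 3 genes did not overlap one another or any other member in any library.

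The remaining members lay at or below the middle of the range of genes. *Exosc1* (6.97 to 8.69 RPKM) and *Exosc4* (6.23 to 7.27) overlapped each other, and *Exosc9* followed at 4.78 to 5.55 RPKM. *Exosc2* (2.4 to 2.94 RPKM) overlapped *Exosc7* (2.02 to 2.58), which overlapped *Exosc6* (1.29 to 2.08). *Exosc8* was the lowest, at 0.95 in both control libraries and 0.953 and 1.1 RPKM in mutant libraries (percentile 17.7). Thus *Exosc5* exceeded *Exosc8*, whose product is its ring partner, by between 188 and 233 times in RPKM within a library, while *Exosc4* stood at 1.21 to 1.36 times *Exosc9*, and *Exosc7* at 1.1 to 2 times *Exosc6*.

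**Figure D1:**
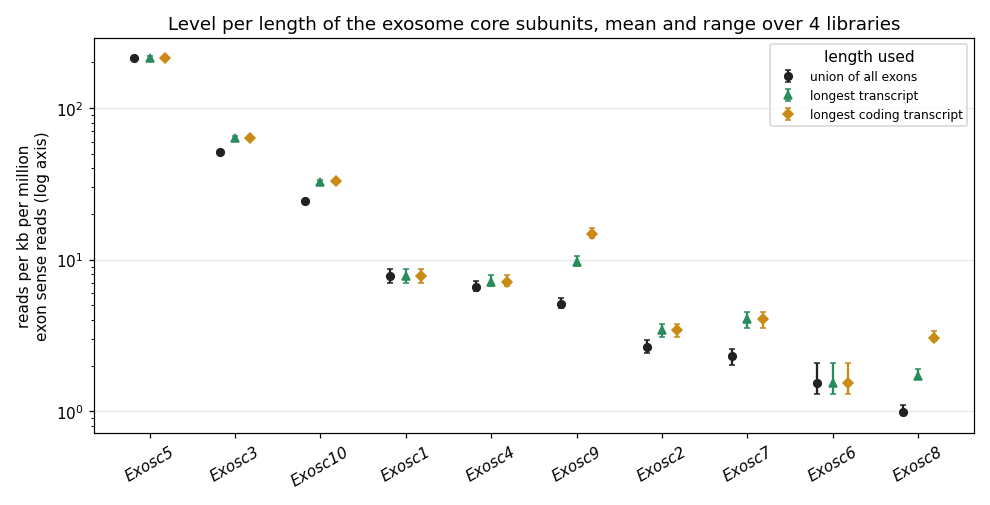
Level of each subunit RNA per length (RPKM, log axis), as mean and range over the 4 libraries. Lengths are the union of all exons, the longest transcript and the longest coding transcript, and genes are ordered from highest to lowest by exon union. *Exosc5* lies above 200 RPKM with each length. *Exosc8* lies near 1 by exon union and at 3.02 by longest coding transcript. The genotypes are not drawn apart.

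This order depends in part on the length used. The exon union of *Exosc8* is 3968 bp over 10 annotated transcripts, against 1300 bp for its longest coding transcript, and with that length it came to 3.02 RPKM, above *Exosc6* at 1.54, and the ratio of *Exosc5* to *Exosc8* to between 61.7 and 76.2. *Exosc9*, with 8 annotated transcripts, came to 14.8 RPKM by the same change, in place of 5.09, and was then above *Exosc4* at 7.15. *Exosc7* stood at 1.93 to 3.5 times *Exosc6* with the longest coding transcript. *Exosc5*, with 1 transcript of 6 exons and 1030 bp, and *Exosc3* remained the highest and second highest with each length. *Exosc6* has no gene model of that name in GENCODE vM1, so that its RefSeq gene span of 1326 bp was used. Its promoter window has 1 perfect match in mm9, at chr8:113579989-113580288 on the plus strand.

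Few stretches of these transcripts recur elsewhere in the genome. Of the 50-base stretches of the longest coding transcripts, 0 had a match elsewhere in mm9 for *Exosc1*, *Exosc3*, *Exosc5*, *Exosc7*, *Exosc8*, *Exosc9* and *Exosc10*. For *Exosc2*, 112 of 1638 stretches (6.84%) had one, and for *Exosc4* 77 of 1747 (4.41%), in both cases with matches on autosomes, X and Y. These are shares of sequence and not of reads, so that the extent to which the counts of both are affected is not known. *Exosc6*, without a transcript model, was not scanned. Between 58.8% (*Exosc10*) and 94.8% (*Exosc4*) of stretches lie within a single exon, and whether reads across splice junctions were counted is not given in the sources used here.

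Between genotypes, the subunit RNAs were close to each other. Of the 10 members, 0 passed the threshold of edgeR's quasi-likelihood test adjusted over all 10728 genes tested (lowest adjusted p 0.954), where 0.00932% of genes were called. One member, *Exosc1*, had an unadjusted p at or below 0.05, against 4.8% of all genes. DESeq2 also called 0 members. The log2 fold change was above 0 for 5 members and below 0 for 5, with a median of 0.002 beside -0.0002 over all genes, and the median absolute value was 0.09 for members and 0.07 for all genes. The libraries of the genotypes did not overlap for 4 of 10 members, against 34.5% of all genes, higher in mutants for *Exosc2* and *Exosc8* (16.4% of all genes) and lower for *Exosc1* and *Exosc5* (18.1%). The normalized counts of all members summed to 8431 and 8392 in control and to 8306 and 8172 in mutant libraries, sums in which *Exosc5* weighs the most.

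**Figure D2:**
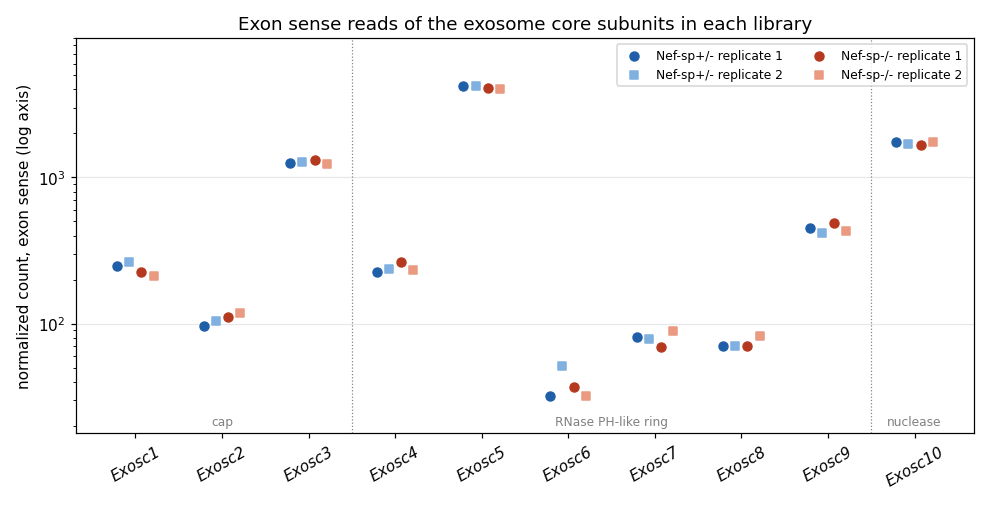
Normalized exon sense count (log axis) of each subunit in every library, grouped by place in the complex. *Exosc5* is the highest and *Exosc6* the lowest, with *Exosc6* spread between 31.9 and 51.4, while the points of *Exosc7* and *Exosc8*, and of *Exosc1* and *Exosc4*, cover overlapping ranges.

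Among the cap subunits, *Exosc1*, whose product carries an S1 RNA-binding domain, is annotated on the minus strand of chr19:41997470-42007804 in mm9 (ENSMUSG00000034321). Its normalized counts were 247 and 263 in control and 224 and 211 in mutant libraries. Both mutant libraries were below both controls, with a log2 fold change of -0.24 (SE 0.102, 95% interval -0.46 to -0.01, n = 2 per group) and an edgeR p of 0.0413, which was 0.954 after adjustment. The summed Leydig cell markers were also lower in both of these libraries, as were *Cyp17a1* and *Cyp11a1* singly, while *Star* and *Insl3* overlapped between genotypes. Of markers of other cell types, *Ddx4* and *Wt1* were also lower in both mutant libraries, and *Tnp1* and *Alas2* higher, without overlap. Such a lower position was seen for 18.1% of all genes, and the part of any cell type in the value of *Exosc1* was not tested.

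*Exosc2* (ENSMUSG00000039356, plus strand, chr2:31526235-31536870), a cap subunit with S1 and KH domains, had normalized counts of 96.7 and 103 in control and 111 and 118 in mutant libraries. Its log2 fold change of 0.19 (SE 0.141, interval -0.12 to 0.50) lay in the other direction from that of *Exosc1*. *Exosc3* (ENSMUSG00000028322, minus strand, chr4:45329485-45355604), the third cap subunit and a gene mutated in pontocerebellar hypoplasia, had 1248 and 1277 normalized counts in control and 1312 and 1241 in mutant libraries. These overlapped, and its log2 fold change of 0.02 had an interval from -0.13 to 0.16. The cap subunits thus had fold changes on both sides of 0.

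In the ring, *Exosc5* (ENSMUSG00000061286, plus strand, chr7:26444172-26453050) was measured most precisely. It had normalized counts of 4239 and 4195 in control and 4079 and 3993 in mutant libraries. Both mutant libraries were below both controls, but the log2 fold change was -0.06 (SE 0.0568), and its 95% interval covered 0.878 to 1.04 times the control level. Its dimer partner *Exosc8* (ENSMUSG00000027752, minus strand, chr3:54532600-54539315) had 70.2 and 70.4 normalized counts in control and 70.5 and 81.6 in mutant libraries. The lower mutant library was thus all but level with the controls, and the log2 fold change of 0.11 (SE 0.168, interval -0.26 to 0.48) rested on mutant replicate 2, without which it was 0.01.

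*Exosc4* (ENSMUSG00000034259, plus strand, chr15:76157827-76161107) had 226 and 235 normalized counts in control and 263 and 233 in mutant libraries. Its dimer partner *Exosc9* (ENSMUSG00000027714, plus strand, chr3:36451528-36464651), known as an autoantigen in polymyositis and scleroderma, had 451 and 419 in control and 487 and 429 in mutant libraries. For both genes mutant replicate 1 was the highest library and mutant replicate 2 lay between the controls, so that the groups overlapped, with log2 fold changes of 0.10 (interval -0.13 to 0.34) and 0.08 (interval -0.12 to 0.28). Without mutant replicate 1 these values were 0.01 and -0.01.

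*Exosc6* and *Exosc7* encode the other dimer of the ring and were among the least counted members. *Exosc7* (ENSMUSG00000025785, plus strand, chr9:123022333-123045247) had 80.6 and 78.9 normalized counts in control and 69.3 and 88.7 in mutant libraries, with the mutant libraries on either side of the controls and a log2 fold change of -0.01 (interval -0.39 to 0.37). *Exosc6*, from 27 to 73 raw reads per library, had 32.2 and 51.4 normalized counts in control and 37.0 and 31.9 in mutant libraries. Its log2 fold change of -0.34 was the largest in size among the members and also the least certain (SE 0.267, interval -0.93 to 0.24). Without control replicate 2, the library at 51.4, it was 0.10, so that its direction rests on that library.

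*Exosc10* (ENSMUSG00000017264, plus strand, chr4:147932538-147956510), the catalytic subunit found mainly in the nucleus and nucleolus, had 1740 and 1699 normalized counts in control and 1653 and 1744 in mutant libraries. The groups overlapped, with a log2 fold change of -0.02 (SE 0.0618, interval -0.15 to 0.12). Of all members, *Exosc3*, *Exosc5* and *Exosc10* had intervals reaching less than 0.2 from 0 on either side on the log2 scale. The intervals of the less abundant members reached further. With 2 libraries per genotype and adjustment over 10728 genes, moderate differences could go undetected in any member. Low read counts add to this for the less abundant ones.

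Intron reads of the members were few and did not differ beyond their spread. *Exosc5* had 75 and 109 intron sense reads in control and 79 and 66 in mutant libraries, between 1.83% and 2.24% of its exon reads. After normalization these were 84.1 and 80.2 against 94.1 and 72.6, with a log2 fold change of 0.02 (SE 0.199, interval -0.39 to 0.43). *Exosc10* had 24 and 20 reads in control and 8 and 19 in mutant libraries (log2 fold change -0.36, interval -1.22 to 0.50), and *Exosc3* 10 and 13 against 6 and 11 (-0.08, interval -1.07 to 0.92). The sign of each of these 3 values turned when 1 library was left out. The genotypes overlapped for all 3 genes, while 28% of intron features did not overlap, and 0 of the 3 were called (edgeR adjusted p of 1 each, 0.0294% of the 3403 intron features tested were called, 2.35% at an unadjusted p of 0.05). *Exosc1*, with 1 to 6 reads, and *Exosc2*, with 3 to 5, did not pass the expression filter.

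The antisense strand held more reads than the sense strand at *Exosc8*. Its exons had 488 and 834 antisense reads in control and 442 and 495 in mutant libraries, against 61, 100, 61 and 69 sense reads, a ratio between 7.17 and 8.34. At its 3′ end the exons of *Exosc8* share 85 bp with those of *Fam48a* on the opposite strand, which is listed as *D3Ertd300e* in the table and had 7855 and 12585 exon sense reads in control and 7910 and 7531 in mutant libraries. The antisense reads of *Exosc8* equalled between 5.59% and 6.63% of these. Whether they came from *Fam48a* transcripts was not tested. After normalization they were 568 and 578 in control and 515 and 589 in mutant libraries, with overlap (30.4% of antisense features had none) and a log2 fold change of -0.06 (SE 0.101, interval -0.26 to 0.15, edgeR adjusted p = 0.996). In this category 0 of 1008 features were called (0% of features), and 30 (2.98%) had an unadjusted p at or below 0.05. *Exosc3* (3 to 12 antisense reads) and *Exosc9* (1 to 6) did not pass the filter.

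The same question of strand arises where other genes overlap a member. *Ccna2*, encoding cyclin A2, shares 512 bp of exon with *Exosc9* on the opposite strand, and its antisense reads equalled between 46.2% and 53.6% of the sense reads of *Exosc9*. *Oplah*, encoding 5-oxoprolinase, shares 385 bp of exon with *Exosc4*, and its antisense reads were between 2.54 and 3.17 times the sense reads of *Exosc4*. The libraries are strand-specific, and how reads in shared exons were assigned is not given in the sources used here. The effect of that assignment on the levels per length of *Exosc4*, *Exosc8* and *Exosc9* was not tested.

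**Figure D3:**
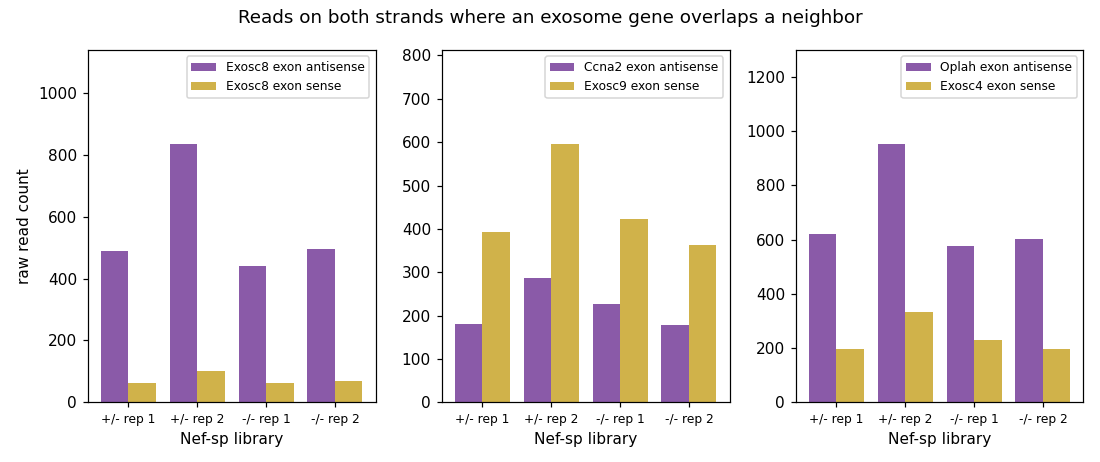
Raw exon read counts per library (bars from 0) for sense and antisense reads of *Exosc8*, and for the sense reads of *Exosc9* and *Exosc4* beside antisense reads of the overlapping *Ccna2* and *Oplah*. Antisense reads exceed sense reads at *Exosc8* and for *Oplah* beside *Exosc4* in all 4 libraries, and the tallest bars belong to control replicate 2, the deepest library.

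The nucleases, cofactors and adaptors that work with the core were read from the same test. Of 31 nuclease, cofactor and adaptor genes of the exosome, 28 could be tested, and 0 rose and 0 fell by the edgeR test (lowest adjusted p 0.954), with 0 at an unadjusted p of 0.05. Over all genes, 0.00932% were called and 4.8% had such a p. Their median log2 fold change was -0.03, with 9 above 0, and the genotypes did not overlap for 2 higher and 6 lower of these 28 genes, against 16.4% and 18.1% of all genes. The nucleases that join the core were among the latter. *Dis3*, the mainly nuclear catalytic subunit, had 2370 and 2390 normalized counts in control and 2227 and 2214 in mutant libraries, with a log2 fold change of -0.10 (interval -0.23 to 0.03). *Dis3l*, its cytoplasmic counterpart, had 8129 and 8368 against 8030 and 7822, with a log2 fold change of -0.06 (interval -0.19 to 0.07). Neither passed the test.

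The range over the pathway ran from -0.22 for *Pols*, a noncanonical poly(A) polymerase of TRAMP-like complexes, to 0.13 for *Mphosph6*, which binds the complex at pre-rRNA processing. *Pols* had only 20 to 51 raw reads per library (interval -0.85 to 0.41), and the interval of *Mphosph6* ran from -0.10 to 0.36. The NEXT subunit genes *Zcchc8* and *Rbm7*, which guide the nuclear exosome to promoter transcripts, were at -0.11 and -0.01, and the SKI and bridge genes, which serve the cytoplasmic exosome, lay between -0.02 and 0.08. Of 4 genes whose products recruit the exosome to AU-rich elements, 3 lay between -0.16 and -0.14, and *Zfp36*, with 1 to 4 reads per library, did not pass the expression filter. Per length of exon union, the 29 listed genes present ranged from 0.0736 RPKM for *Zfp36* to 114 for *AU014645*, encoding a nuclear cap-binding protein, which lay between *Exosc3* and *Exosc5*. *Dis3l* stood at 79.6 RPKM and *Dis3* at 33.2.

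**Figure D4:**
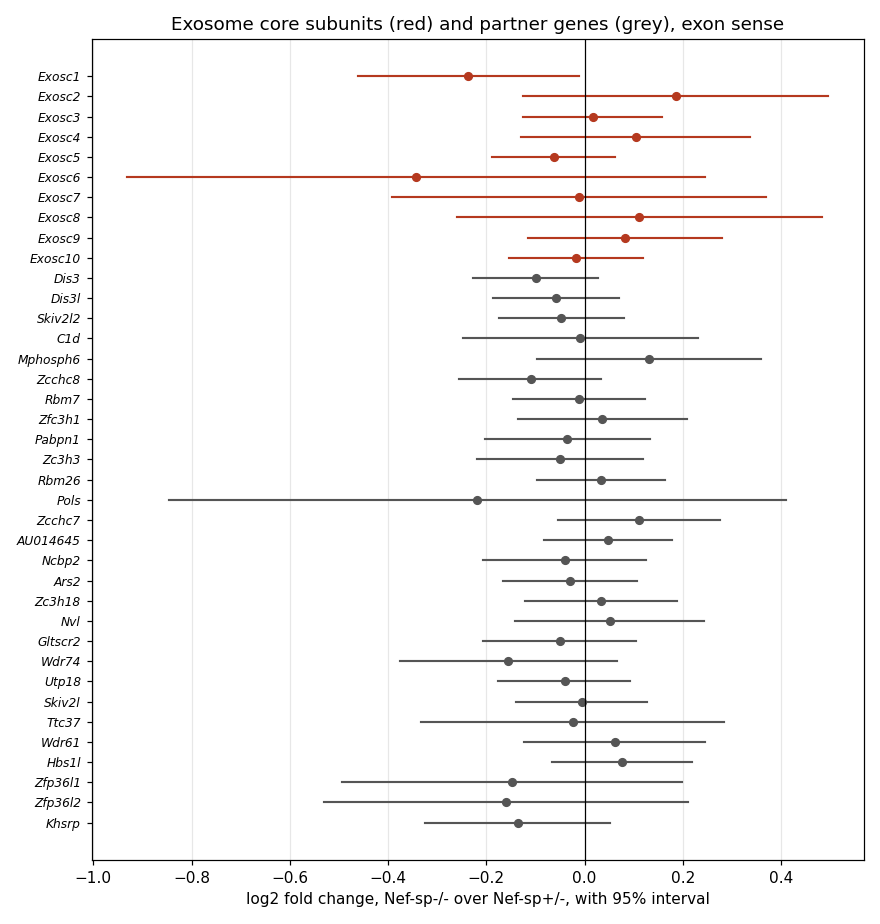
Log2 fold change of mutant over control libraries with its 95% interval for the 10 core subunits (red) and 28 genes working with them (grey). Every interval except that of *Exosc1* includes 0, and among the core subunits that of *Exosc6* is the widest.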

How the data were processed

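Total testicular RNA was isolated with TRI-reagent, depleted of rRNA (Ribo-Zero), made into strand-specific libraries (TruSeq Stranded Total RNA) and sequenced on an Illumina HiSeq for 50 cycles. The deposited values are raw counts of reads per feature, annotation category and strand, which the authors obtained by mapping to mm9 with their own software and keeping only perfect matches. Software versions, and what was done with reads matching several places, are not given in the sources used here. Their other columns hold a mean normalized level, fold change, p-value and adjusted p-value of DESeq2 and were not used. All per-sample columns matched a library by the code in its label.

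Each category was fitted with edgeR 4.0.16 in R 4.3.3 (quasi-likelihood test, TMM, filterByExpr with minimum count 10, no covariates), with Benjamini-Hochberg adjustment over the category and a threshold of 0.05. Normalized counts are counts scaled to the mean effective library size. Standard errors and 95% intervals were derived from the fold change and its F statistic. Exact permutation of 2 against 2 libraries cannot go below p = 0.333 and was not used. Levels per length used GENCODE vM1, which gives 97% of exon sense features a length. Named are all members, genes overlapping or starting beside them, *Nef-sp*, and pathway genes giving the range of their subgroup. The marker genes, *Zfp36*, *AU014645* and the levels per length of pathway genes were named after their values were seen. Members and lists were chosen with earlier results of these data known. Older symbols were matched through RefSeq synonyms.

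Alternatives were DESeq2 1.42.0, edgeR with its size factors, scaling to the reads of all categories, other filters, 1 fit over all categories, a replicate block, each library left out, and transcript length. The exon antisense fit and the longest coding transcript were chosen after seeing the data. Figures were drawn with matplotlib 3.10.9.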

Additional observations from a re-analysis of the deposited data

How the results depend on the processing

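Under the 11 alternative fits, 0 members were called in exons and in introns, and the sign of the exon fold change was kept in all 11 for *Exosc1*, *Exosc2*, *Exosc4*, *Exosc5* and *Exosc8*, in 10 for *Exosc6*, *Exosc9* and *Exosc10* and in 9 for *Exosc3* and *Exosc7*. Without *Nef-sp*-/- replicate 1 it turned for *Exosc3* (-0.03), *Exosc7* (0.16), *Exosc9* (-0.01) and *Exosc10* (0.02), without *Nef-sp*+/- replicate 1 for *Exosc7*, without *Nef-sp*+/- replicate 2 for *Exosc6* (0.10), and with the library size over all categories for *Exosc3*. *Exosc4* lay between 0.01 and 0.19, the ends being without *Nef-sp*-/- replicates 1 and 2. Intron values turned without *Nef-sp*+/- replicate 1 for *Exosc3* (0.01) and *Exosc10* (0.06), without *Nef-sp*+/- replicate 2 for *Exosc5* (-0.03), and without *Nef-sp*-/- replicate 1 for *Exosc3* (0.23), *Exosc5* (-0.18) and *Exosc10* (0.07), and without *Nef-sp*-/- replicate 2 they were -0.51, 0.20 and -1.05. The lowest adjusted p of a member was 0.797, for *Exosc1* without *Nef-sp*+/- replicate 1. *Exosc3* and *Exosc10* introns have 10 alternatives, since they fail the filter of 10 counts in every library.

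The median log2 fold change of members was 0.002, and it was -0.021 with the library size over all categories, -0.007 with 1 fit over all categories, and between -0.019 and 0.029 with a library left out. The number of exon sense genes called was 1, against 2 with DESeq2 and between 1 and 252 with a library left out (252 without *Nef-sp*+/- replicate 2 and 41 without *Nef-sp*+/- replicate 1), and the cause was not tested. In introns 1 feature was called, against 0 with the library size over all categories, no expression filter, DESeq2 or 1 fit over all categories.

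Levels per length with the longest transcript, and then the longest coding transcript, were 63.3 and 63.3 RPKM for *Exosc3*, 32.6 and 32.9 for *Exosc10*, 7.15 and 7.15 for *Exosc4*, 9.68 and 14.8 for *Exosc9*, 3.42 and 3.42 for *Exosc2*, 4.05 and 4.05 for *Exosc7*, and 1.7 and 3.02 for *Exosc8*.

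The replicate numbers are not said to pair animals, and deviations of same-numbered libraries correlated at -0.0854 in exons, -0.145 in introns and -0.0439 antisense. With the replicate number as a block, 1 exon sense gene and 0 members were called, and the median member fold change was 0.007. With few reads, as for *Exosc6* and the introns, depth limits the intervals, which also rest on 2 libraries per genotype.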
